A study of Homo sapiens with 9 samples.

Results

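The iron handling genes are the 10 genes HAMP, TF, TFRC, TFR2, HFE, SLC40A1, SLC11A2, FTL, FTH1 and CP, picked by symbol for their parts in the uptake, storage, export and sensing of iron. All 10 were found among the 27800 gene symbols of the expression table. They were measured by RNA sequencing of total RNA from Huh7, an established human hepatocellular carcinoma cell line grown in DMEM with 10% fetal bovine serum. Cells of 3 libraries had received 5 uM FIDAS-5, an inhibitor of the methionine adenosyltransferase MAT2A, for 48 h. A further 3 libraries came from cells given 0.5 uM JQ1, which blocks the BET bromodomain proteins, for 48 h, and 3 came from vehicle-treated cells whose solvent and exposure time the labels do not give. The labels do not say whether the replicates of a group were separate cultures, so the p-values here reflect no more than how these libraries vary, and a single cell line was used.

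As background, iron reaches hepatocytes bound to transferrin or as free ions, is kept inside the ferritin shell, and leaves through ferroportin, the only known iron exporter of mammalian cells. The liver also senses body iron and secretes hepcidin, the hormone that removes ferroportin from cell surfaces. When iron is scarce, the iron regulatory proteins bind stem-loops called iron-responsive elements; in a 5' UTR this binding blocks translation, and in the 3' UTR of TFRC it protects the transcript from decay. Ferritin and ferroportin are therefore controlled in large part at translation, which an RNA level does not measure.

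Stem-loops of the canonical form, which the iron regulatory proteins bind, are shown as they stand in GENCODE transcripts of GRCh38, 5' to 3' on the transcript strand, with the loop CAGTGN in capitals.
FTH1 5' UTR, chr11:61967575-61967601, minus strand: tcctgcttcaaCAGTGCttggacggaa
FTL 5' UTR, chr19:48965336-48965362, plus strand: tcttgcttcaaCAGTGTttggacggaa
SLC40A1 5' UTR, chr2:189580662-189580688, minus strand: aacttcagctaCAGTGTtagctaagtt
TFRC 3' UTR, chr3:196050980-196051006, minus strand: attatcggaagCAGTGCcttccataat
TFRC 3' UTR, chr3:196050576-196050602, minus strand: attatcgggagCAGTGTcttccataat
TFRC 3' UTR, chr3:196050511-196050537, minus strand: tgtatcggagaCAGTGAtctccatatg
TFRC 3' UTR, chr3:196050464-196050490, minus strand: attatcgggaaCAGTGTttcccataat
Each is 27 bases long, with 5 lower stem pairs, an unpaired C, 5 upper stem pairs and the 6-base loop. The search, on the transcript strand only, let 1 lower pair fail, which FTH1 and FTL needed and the SLC40A1 and TFRC hairpins did not. This form occurred in 4 of the 10 genes, with 1 hairpin each in FTH1, FTL and SLC40A1 and 4 in TFRC. Of 19669 genes with protein-coding transcripts, 7 (0.0356%) had it in a 5' UTR and 11 (0.0559%) in a 3' UTR. Elements of other forms, such as the one known in the 3' UTR of SLC11A2, were not searched for. A match describes the letters of the transcript and is no measurement of binding in these cells.

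The files hold TPM, a transcript level corrected for length and scaled to the library, that keeps no read counts, so the depth of each library and its counting error are unknown. Protein-coding genes made up 27.6% to 34.0% of TPM, and 12229 to 13014 genes reached 1 TPM in a library. Departures of replicate 3 from the group mean followed the GC content of transcripts over 13042 genes for FIDAS-5 (Spearman 0.55) and for JQ1 (Spearman 0.64). Those of replicate 1 of each compound ran the opposite way (-0.51 and -0.65), as did those of replicate 2 to a lesser degree (-0.21 and -0.34). Vehicle replicates 1, 2 and 3 also departed (0.38, -0.27 and -0.14). All 7 hepatocyte markers were present, with a summed level of 3328 to 5359 TPM with FIDAS-5, 7963 to 12304 TPM with JQ1 and 4284 to 5140 TPM with vehicle. None of 6 erythroid markers reached 1 TPM, and HBB, HBA1 and HBA2 were listed at 0. Of 6 macrophage markers, CD163 and MARCO were listed at 0, and the list's sum, most of it LYZ, was 237 to 292 TPM with FIDAS-5, 14.1 to 19.6 TPM with JQ1 and 109 to 132 TPM with vehicle. With a single cell line, these sums describe transcripts of Huh7 cultures and do not count cells of other kinds. In bulk RNA, a change in all cells and a change in some of them cannot be told apart.

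Ferritin and transferrin transcripts stood far above the rest in all 9 libraries. In vehicle-treated cells the order of TPM was FTL, FTH1, TF, TFRC, SLC40A1 and SLC11A2, each with all 3 libraries above those of the next. HFE, CP and TFR2 followed with overlapping libraries between 1.30 and 4.99 TPM, and HAMP was lowest, at 0.0753 to 0.126 TPM. With FIDAS-5, TFR2 stood above HFE and CP, whose libraries overlapped each other. With JQ1 the lower end had no overlap, TFR2 above HFE and HFE above CP, whereas TFRC and SLC40A1 overlapped.

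**Figure D1:**
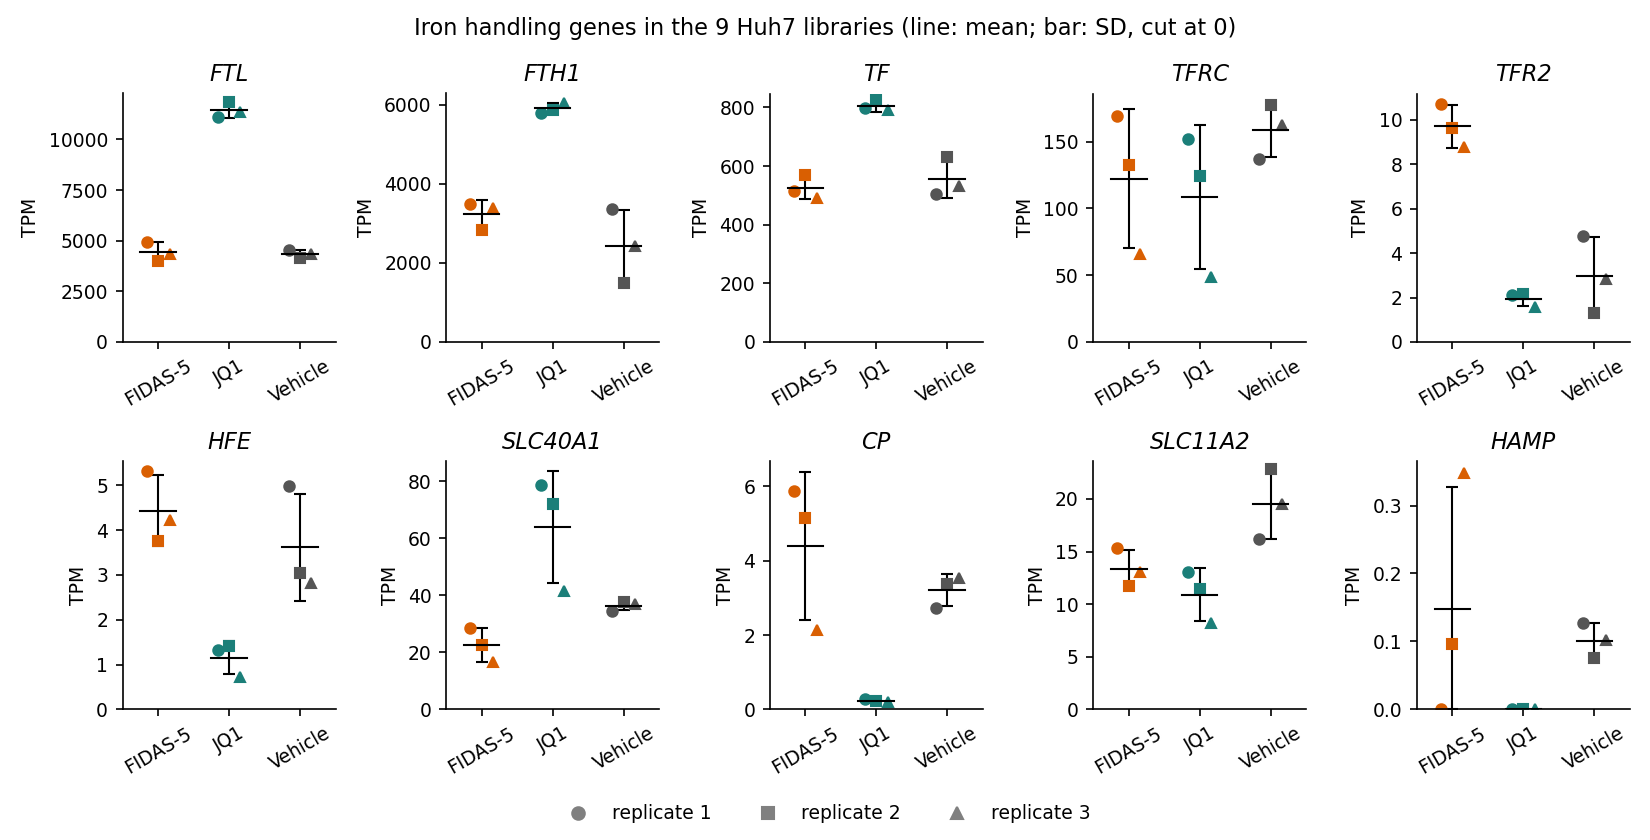
TPM of each of the 10 genes (vertical axes, linear from 0, scaled per gene) in the 3 FIDAS-5, 3 JQ1 and 3 vehicle libraries. Points are libraries, with the replicate number as the symbol, horizontal lines are means and bars are SD; the JQ1 libraries of FTL, FTH1 and TF lie above all others, those of CP and HFE below.

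Differences were tested on log2(TPM + 1) with limma over the 13573 genes that reached 1 TPM in at least 3 libraries, and a gene counted as called when its adjusted p (Benjamini-Hochberg) lay under 0.05. The 9 genes other than HAMP passed this filter. With FIDAS-5, 1 of the 9 was called against vehicle, TFR2, which was higher. Of all tested genes 20.2% were called in that comparison, 12.6% higher and 7.6% lower. The count of iron genes depended on the scaling: it was 3 of 9, with SLC40A1 and SLC11A2 lower, under each of median-of-ratios scaling, quantile normalization, protein-coding genes only and a GC correction, which removes each library's trend on transcript GC content. Scaling mattered for the background: 1711 genes were higher and 1031 lower, against 1904 higher and 1756 lower after quantile normalization. The FIDAS-5 and vehicle libraries did not overlap for 3 of the 9 genes (TFR2, SLC40A1 and SLC11A2), against 39.3% of all tested genes.

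More of them were called with JQ1. Against vehicle, 4 of the 9 were higher (FTL, FTH1, TF and SLC40A1) and 3 lower (CP, HFE and SLC11A2), where 38.5% of all tested genes were called, 19% higher and 19.4% lower. The groups did not overlap for those 7 genes, against 50.7% of all tested genes. JQ1 against FIDAS-5, a comparison of compounds given at different doses, also had 4 higher (FTL, FTH1, TF and SLC40A1) and 3 lower (CP, TFR2 and HFE), with 34.8% of all tested genes called, 16.4% higher and 18.5% lower. Here 7 of the 9 genes did not overlap, against 47.6% of all. Median log2 fold changes of the 9 genes were 0.021, -0.34 and -0.22 in FIDAS-5 against vehicle, JQ1 against vehicle and JQ1 against FIDAS-5, beside -0.022, -0.0080 and 0.046 over all tested genes. The 3 comparisons share libraries, so they are not independent of each other.

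**Figure D2:**
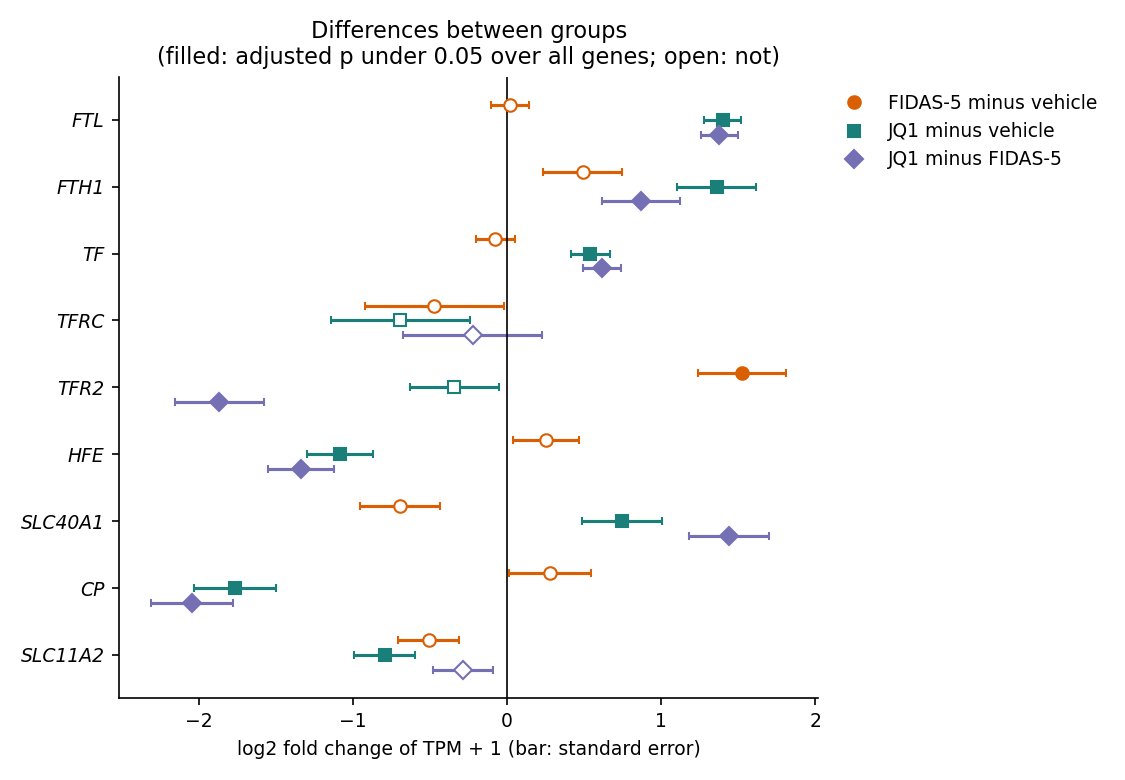
Log2 fold change of TPM + 1 (horizontal axis) with its standard error for the 9 tested genes in FIDAS-5 against vehicle, JQ1 against vehicle and JQ1 against FIDAS-5; filled symbols had an adjusted p under 0.05. FTL and FTH1 are at 1.40 and 1.36 with JQ1, CP at -1.76, and TFR2 stands alone as a filled symbol for FIDAS-5.

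The storage genes, the most abundant of the 10, rose with JQ1. FTL encodes the ferritin light chain, which helps form the iron core, and lies at chr19:48965309-48966879 of GRCh38. It was measured at 4949, 3977 and 4350 TPM with FIDAS-5, 11115, 11872 and 11380 TPM with JQ1 and 4562, 4137 and 4345 TPM with vehicle. Every JQ1 library was above every other library, while FIDAS-5 and vehicle overlapped. FTL rose with JQ1 by 1.40 on the log2 scale (SE 0.12, limma adjusted p = 6.79e-05). Its mean was 11456 ± 384 TPM with JQ1 and 4348 ± 212 TPM with vehicle (SD, n = 3 each), 2.63 times as much with JQ1. Its level with FIDAS-5 was 4425 ± 490 TPM (SD, n = 3), a log2 difference from vehicle of 0.021 (SE 0.12, adjusted p = 0.927). JQ1 exceeded FIDAS-5 by 1.38 (adjusted p = 5.00e-05).

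FTH1 encodes the ferritin heavy chain, the subunit with ferroxidase activity, and lies at chr11:61964285-61967634. It had 3498, 2835 and 3397 TPM with FIDAS-5, 5795, 5862 and 6055 TPM with JQ1 and 3353, 1502 and 2414 TPM with vehicle. The JQ1 libraries were closest to each other and above all others, and the vehicle libraries were the most spread. FTH1 rose with JQ1 by 1.36 on the log2 scale (SE 0.26, adjusted p = 0.00325), to 5904 ± 135 TPM against 2423 ± 926 TPM with vehicle (SD, n = 3 each). The FIDAS-5 difference from vehicle was 0.49 (SE 0.26, adjusted p = 0.219); it was 0.18 (not called) without vehicle replicate 2 and 0.76 and called (adjusted p = 0.0390) without vehicle replicate 1. JQ1 was above FIDAS-5 by 0.87 (adjusted p = 0.0275), a call lost without FIDAS-5 replicate 2 or 3 (adjusted p = 0.0975 and 0.0594) or JQ1 replicate 1 or 2 (0.0624 and 0.0730), without replicate 3 of both compounds (0.0738) and with no filter on low genes (0.0515). The exons of FTH1 share 1267 bases with BEST1 on the opposite strand, which averaged 1.58, 2.73 and 1.22 TPM with FIDAS-5, JQ1 and vehicle; whether the counting used strand is not given in the sources used here. The table lists 3 ferritin pseudogenes, which together came to at most 0.0142% of ferritin TPM in a library, though reads from other near-identical copies could be split in the authors' counting.

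Together the ferritin chains took 2.55%, 2.39% and 2.74% of protein-coding TPM with FIDAS-5, 4.97%, 5.30% and 6.31% with JQ1 and 2.61%, 1.76% and 2.19% with vehicle. The JQ1 shares were all above the others, and the FIDAS-5 and vehicle shares overlapped. The ratio of FTL to FTH1, which does not depend on how a library is scaled, was 1.41, 1.40 and 1.28 with FIDAS-5, 1.92, 2.03 and 1.88 with JQ1 and 1.36, 2.76 and 1.80 with vehicle. On the log2 scale the JQ1 ratio differed from vehicle by 0.038 (exact permutation test over libraries, two-sided, p = 0.8) and the FIDAS-5 ratio by -0.47 (exact p = 0.3). JQ1 was above FIDAS-5 by 0.51 with no overlap, at the smallest p that 3 libraries against 3 allow (exact permutation p = 0.1). The level of TFRC as a percentage of FTH1, an RNA counterpart of the balance of uptake and storage, was 4.83%, 4.67% and 1.93% with FIDAS-5, 2.63%, 2.13% and 0.801% with JQ1 and 4.08%, 11.8% and 6.74% with vehicle. That ratio was lower with JQ1 than with vehicle by a log2 difference of -2.06, with no overlap and at the smallest p possible (exact permutation p = 0.1). The median transcript has 41.5% GC for TFRC and 53.5% for FTH1. Replicate 3, whose departures followed GC content, had the lowest ratio of each compound. The part of the GC trend in this ratio was not tested. The other differences of this ratio, -0.97 for FIDAS-5 against vehicle and -1.09 for JQ1 against FIDAS-5, had overlapping libraries (exact permutation p = 0.3 for each). Adjusted over these 6 tests (Benjamini-Hochberg), the exact permutation p were 0.3 to 0.8.

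**Figure D3:**
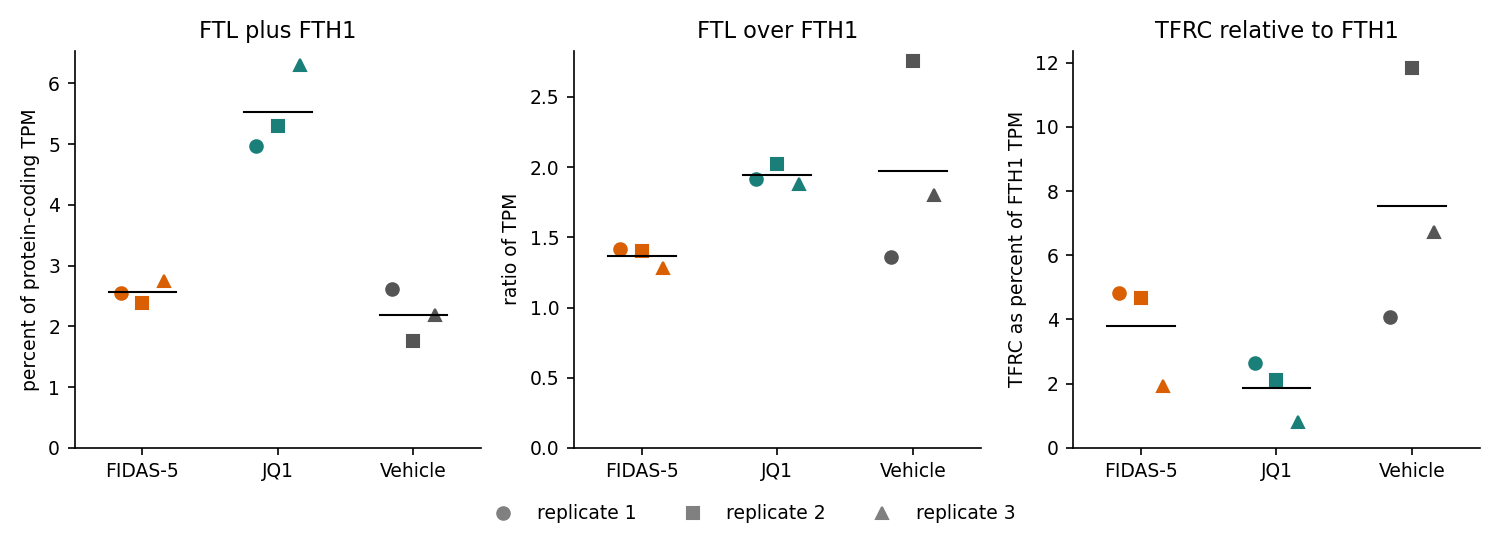
Per library, FTL plus FTH1 as a percentage of protein-coding TPM, the ratio of FTL to FTH1 and TFRC as a percentage of FTH1 (vertical axes from 0) in FIDAS-5, JQ1 and vehicle libraries; points are libraries and lines are means. The ferritin share was 4.97% to 6.31% with JQ1 and at most 2.74% elsewhere, and the 3 vehicle ratios are the most spread in the other panels.

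Export showed the compounds on opposite sides of vehicle for the exporter itself. SLC40A1 encodes ferroportin and lies at chr2:189560590-189580786. Its level was 28.5, 22.7 and 16.7 TPM with FIDAS-5, 78.6, 71.9 and 41.5 TPM with JQ1 and 34.5, 37.6 and 37.0 TPM with vehicle. No 2 groups overlapped, and replicate 3 of each compound was its lowest. SLC40A1 rose with JQ1 by 0.75 on the log2 scale against vehicle (SE 0.26, adjusted p = 0.0488) and exceeded FIDAS-5 by 1.44 (adjusted p = 0.00288), the second call holding in every alternative tried. The FIDAS-5 difference from vehicle was -0.69 (SE 0.26, adjusted p = 0.0967). Both contrasts with vehicle sat near the threshold. The JQ1 call was lost without JQ1 replicate 1 or 2 (adjusted p = 0.145 and 0.147), FIDAS-5 replicate 2 (0.0727) or any one vehicle library (0.109, 0.0970 and 0.105), with only the 6 libraries compared (0.0559), a pseudocount of 0.1 (0.0608) or no filter on low genes (0.0879). The FIDAS-5 difference was called lower with median-of-ratios scaling (0.0150), quantile normalization (0.0181), protein-coding genes only (0.0274), only the 6 libraries compared (0.0440), a GC correction (0.0270) and without JQ1 replicate 3 (0.0267).

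CP encodes ceruloplasmin, the copper ferroxidase that hepatocytes secrete and that loads exported iron onto transferrin, and lies at chr3:149162414-149221829. It had 5.87, 5.15 and 2.13 TPM with FIDAS-5, 0.279, 0.219 and 0.207 TPM with JQ1 and 2.73, 3.36 and 3.53 TPM with vehicle. All JQ1 libraries were below 0.3 TPM, and FIDAS-5 replicate 3 was below the vehicle range while the other FIDAS-5 libraries lay above it. CP fell with JQ1, to a mean 0.0732 times that with vehicle, or -1.76 as a log2 fold change with the pseudocount of 1 (SE 0.27, adjusted p = 0.00105). That fold change understates the difference of so low a gene: it was -3.30 with a pseudocount of 0.1 and -2.70 with TPM rescaled over protein-coding genes. Against FIDAS-5 the JQ1 difference was -2.04 (adjusted p = 4.64e-04). FIDAS-5 differed from vehicle by 0.28 (adjusted p = 0.502), and by 0.63, called, without FIDAS-5 replicate 3 (adjusted p = 0.0334). CP exons share 1418 bases with HPS3 on the opposite strand, whose means were 5.94, 5.10 and 9.01 TPM with FIDAS-5, JQ1 and vehicle.

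Among the genes of uptake, TF encodes transferrin, the plasma iron carrier that hepatocytes secrete, at chr3:133661998-133796641. It was measured at 517, 570 and 493 TPM with FIDAS-5, 796, 830 and 791 TPM with JQ1 and 506, 630 and 532 TPM with vehicle. JQ1 libraries stood above the rest, with FIDAS-5 and vehicle mixed. TF rose with JQ1 by 0.54 (SE 0.13, adjusted p = 0.00934), and JQ1 exceeded FIDAS-5 by 0.62 (adjusted p = 0.00545), while FIDAS-5 differed from vehicle by -0.076 (adjusted p = 0.718). The abundant hepatocyte transcript ALB moved beside it: 5 of the 7 hepatocyte markers rose with JQ1, among them ALB, to a mean 2.94 times that with vehicle (adjusted p = 0.0106), and 1 fell, TTR, by 1.73 on the log2 scale (adjusted p = 1.64e-05), where 38.5% of all tested genes were called. Their part in the result was not tested. TF exons share 112 bases with SRPRB on the same strand, whose means were 64.4, 26.8 and 38.3 TPM with FIDAS-5, JQ1 and vehicle. They also share 191 bases on the same strand with TFP1, which is not among the gene symbols of the expression table.

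TFRC encodes transferrin receptor 1, which takes up transferrin-bound iron, at chr3:196049284-196082090. Its level was 169, 133 and 65.7 TPM with FIDAS-5, 152, 125 and 48.5 TPM with JQ1 and 137, 178 and 163 TPM with vehicle. The groups overlapped, and replicate 3 of each compound was below all other libraries. TFRC differed from vehicle by -0.47 with FIDAS-5 (SE 0.45, adjusted p = 0.507) and by -0.69 with JQ1 (SE 0.45, adjusted p = 0.259), neither past the threshold, and the compounds differed by -0.22 (adjusted p = 0.739). Without replicate 3 of both compounds the differences from vehicle were -0.079 with FIDAS-5 and -0.20 with JQ1. The median TFRC transcript has 41.5% GC, and after removal of the GC trend the values were -0.24 with FIDAS-5 and -0.53 with JQ1, still not called. The JQ1 minus FIDAS-5 difference turned to 0.27 without JQ1 replicate 3 and to 0.061 without FIDAS-5 replicate 1.

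SLC11A2 encodes DMT1, which carries ferrous iron across endosomal and cell membranes, at chr12:50952263-51028886. It had 15.3, 11.7 and 13.1 TPM with FIDAS-5, 13.1, 11.5 and 8.20 TPM with JQ1 and 16.2, 22.9 and 19.5 TPM with vehicle. Every library of either compound was below every vehicle library. SLC11A2 fell with JQ1 by 0.79 on the log2 scale (SE 0.20, adjusted p = 0.0120). The FIDAS-5 difference of -0.51 was not called (SE 0.20, adjusted p = 0.105), but was called lower with median-of-ratios scaling (0.0382), quantile normalization (0.0213), protein-coding genes only (0.0454) and a GC correction (0.0186). The compounds differed by -0.29 (adjusted p = 0.296), called in 1 alternative, the GC correction (-0.30, adjusted p = 0.0454).

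The genes of iron sensing separated the compounds. TFR2 encodes transferrin receptor 2, a hepatocyte sensor of transferrin saturation, at chr7:100620420-100641552. It was measured at 10.7, 9.63 and 8.79 TPM with FIDAS-5, 2.12, 2.16 and 1.56 TPM with JQ1 and 4.76, 1.30 and 2.85 TPM with vehicle. FIDAS-5 libraries lay above all others, and JQ1 libraries fell within the vehicle range. TFR2 rose with FIDAS-5 by 1.52 on the log2 scale (SE 0.29, adjusted p = 0.00650), to 9.71 ± 0.969 TPM against 2.97 ± 1.73 TPM with vehicle (SD, n = 3 each), 3.26 times as much. Leaving out any one library gave 1.18 to 1.84, called each time. JQ1 differed from vehicle by -0.34 (adjusted p = 0.385), called lower without vehicle replicate 2 (-0.68, adjusted p = 0.0342) and after the GC correction (-0.61, adjusted p = 0.0352), and from FIDAS-5 by -1.86 (adjusted p = 0.00123).

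HFE encodes the MHC class I-like partner of both transferrin receptors that is mutated in hereditary haemochromatosis, at chr6:26087429-26098343. Its level was 5.31, 3.76 and 4.22 TPM with FIDAS-5, 1.32, 1.42 and 0.731 TPM with JQ1 and 4.99, 3.05 and 2.82 TPM with vehicle. The JQ1 libraries were below all others, and FIDAS-5 and vehicle overlapped. HFE fell with JQ1, to a mean 0.320 times that with vehicle and by 1.08 on the log2 scale (SE 0.21, adjusted p = 0.00412), and it was lower than with FIDAS-5 by a log2 difference of -1.34 (adjusted p = 0.00149). FIDAS-5 differed from vehicle by 0.25 (adjusted p = 0.446).

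HAMP encodes hepcidin, at chr19:35282528-35285143. It was listed at 0, 0.0963 and 0.348 TPM with FIDAS-5, at 0 in all 3 JQ1 libraries and at 0.126, 0.0753 and 0.102 TPM with vehicle. The FIDAS-5 and vehicle libraries overlapped. All values were under the filter, so HAMP was not tested, and at an unknown depth a listing of 0 does not show absence.

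Other genes of iron metabolism were described in 6 lists holding 101 genes, of which 86 were tested. With FIDAS-5, 14 rose and 8 fell against vehicle (22 of 86, where 20.2% of all tested genes were called), and with JQ1, 23 rose and 18 fell (41 of 86, where 38.5% of all were called). JQ1 against FIDAS-5 gave 15 higher and 15 lower (30 of 86, where 34.8% of all were called), a balance that was 14 and 8 without FIDAS-5 replicate 1, 20 and 12 without JQ1 replicate 3, 18 and 27 with protein-coding genes only and 24 and 29 after the GC correction. Median log2 fold changes of the 86 were 0.091 with FIDAS-5 and 0.12 with JQ1, beside -0.022 and -0.0080 over all tested genes. The FIDAS-5 count was 12 without FIDAS-5 replicate 1, 9 without FIDAS-5 replicate 3, 13 without vehicle replicate 3 and 35 after the GC correction. The JQ1 count ran from 36 to 50 when any one library was left out and was 58 after the GC correction. Of the calls, 11 of 22 with FIDAS-5 and 31 of 41 with JQ1 held in every alternative in which the gene was tested. The 11, the 14 that rose and the 15 lower in JQ1 against FIDAS-5 include HEPH and HJV. The 18 that fell with JQ1 include HJV. Both genes passed the filter only through their FIDAS-5 libraries, so these counts hold calls that the filter favoured. With FIDAS-5 these 2 genes were tested in only 15 of the 20 alternatives, so their calls are no evidence of stability.

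The list of sensing by the iron regulatory proteins had no RNA called against vehicle in its 5 genes. Of all tested genes, 20.2% were called with FIDAS-5 and 38.5% with JQ1. The list holds ACO1 and IREB2, which encode those proteins, and FBXL5, SKP1 and CUL1, which serve in the degradation of IREB2's product. Their RNA levels do not measure the activity of the proteins. ACO1 averaged 13.6 ± 1.53 TPM with FIDAS-5, 20.1 ± 3.84 TPM with JQ1 and 14.7 ± 3.02 TPM with vehicle (SD, n = 3 each). With JQ1, 3 genes of this list were called higher without JQ1 replicate 3, 1 after quantile normalization, and 3 higher and 1 lower after the GC correction. FBXL5 was higher with JQ1 than with FIDAS-5 (0.73, adjusted p = 0.0495), at the threshold and lost in 13 of 20 alternatives.

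In the list of transport and reduction, 10 of 16 genes were tested. FIDAS-5 gave 2 higher and 1 lower (3 of 10, beside 20.2% of all tested genes), but no call without FIDAS-5 replicate 1 or 3 and 1 without FIDAS-5 replicate 2 or vehicle replicate 2 or 3. One of the 2 was HEPH, a membrane ferroxidase related to ceruloplasmin, at 1.49, 1.09 and 1.32 TPM with FIDAS-5, 0.0878, 0.0669 and 0.110 TPM with JQ1 and 0.263, 0.289 and 0.319 TPM with vehicle. HEPH passed the filter only through its FIDAS-5 libraries, so its values are given without a test. JQ1 gave 1 higher and 3 lower (4 of 10, beside 38.5% of all). STEAP3, the reductase that prepares endosomal iron for DMT1, fell with JQ1 by 0.98 (adjusted p = 3.77e-04). So did SLC39A8, a transporter of zinc, manganese and iron, to 1.62 ± 0.626 TPM against 4.14 ± 0.163 TPM with vehicle (SD, n = 3 each, adjusted p = 0.00473). MCOLN1, the lysosomal cation channel that can release iron, rose with JQ1 by 0.99 (adjusted p = 0.00547). It also rose with FIDAS-5, by 0.86 (adjusted p = 0.0182), a call lost in 5 of 20 alternatives. The list of ferritin delivery and turnover had 4 of 5 genes tested, none called with FIDAS-5 (beside 20.2% of all tested genes). With JQ1, 2 were higher, or 1 without JQ1 replicate 1 or 2 (38.5% of all tested genes were called). PCBP2, an iron chaperone and RNA-binding protein, rose with JQ1 by 0.91 (adjusted p = 0.00467), to 508 ± 19.2 TPM against 275 ± 62.8 TPM with vehicle (SD, n = 3 each). NCOA4, the receptor for ferritin degradation, differed from vehicle by -0.39 with FIDAS-5 (adjusted p = 0.368) and by -0.58 with JQ1 (adjusted p = 0.141).

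Hepcidin regulation was tested in 22 of 28 genes, with 5 higher and none lower for FIDAS-5 (beside 20.2% of all tested genes called) and 6 higher and 4 lower for JQ1 (beside 38.5%). The FIDAS-5 count was 2 without FIDAS-5 replicate 1 or 3, 3 without vehicle replicate 3 and 11 after the GC correction; the JQ1 count was 17, with 13 higher, without JQ1 replicate 3 or after the GC correction. CREB3L3, a liver transcription factor that can activate HAMP, rose with FIDAS-5 by 1.42 (adjusted p = 1.18e-04) to 13.7 TPM on average against 4.48 TPM with vehicle, and fell with JQ1 by 0.57 (adjusted p = 0.00596) to 2.69 TPM. HJV, the BMP co-receptor hemojuvelin (listed under its older symbol), had 1.49, 1.73 and 1.55 TPM with FIDAS-5, 0.0551, 0.0947 and 0.0604 TPM with JQ1 and 0.375, 0.576 and 0.420 TPM with vehicle. HJV too passed the filter only through its FIDAS-5 libraries, and its values are given without a test, though it is among the 5 and the 4 counted above. STAT3, which carries the interleukin 6 signal to HAMP, rose with both compounds, by 0.91 with FIDAS-5 (adjusted p = 0.00148) and by 1.13 with JQ1 (adjusted p = 2.33e-04). SMAD7, an inhibitor of BMP signalling, rose with JQ1 by 1.23 (adjusted p = 2.19e-04) and NEO1, a hemojuvelin-binding receptor, by 1.13 (adjusted p = 0.00163). BMP4 fell with JQ1 by 1.18 (adjusted p = 0.00134), to 1.83 TPM on average against 5.58 TPM with vehicle. With FIDAS-5 it rose by 0.82 (adjusted p = 0.0155), to 10.3 TPM on average, a call lost in 4 of 20 alternatives.

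Heme metabolism had 6 higher and 3 lower with FIDAS-5 (beside 20.2% of all tested genes called) and 9 higher and 4 lower with JQ1 (beside 38.5%) of 19 tested. HMOX1, the heme oxygenase that frees iron from heme, had 36.1, 31.1 and 30.8 TPM with FIDAS-5, 42.4, 43.0 and 44.6 TPM with JQ1 and 18.7, 16.4 and 16.1 TPM with vehicle. No 2 of these groups overlapped. HMOX1 rose by 0.90 with FIDAS-5 (adjusted p = 0.00121) and by 1.30 with JQ1 (adjusted p = 8.81e-05). ABCB6, a porphyrin transporter, rose by 1.69 with FIDAS-5 (adjusted p = 3.49e-04), and BLVRB, a biliverdin and flavin reductase, by 1.47 (adjusted p = 8.77e-04). With JQ1, ABCB6 also rose, by 1.21 (adjusted p = 9.39e-04), while BLVRB was not called (-0.38, adjusted p = 0.132). HP, the plasma haemoglobin carrier haptoglobin, fell with FIDAS-5 by 2.06 (adjusted p = 1.26e-04), to 3.47 TPM on average against 17.7 TPM with vehicle. It also fell with JQ1, by 0.86 (adjusted p = 0.00507), to 9.21 TPM on average. SLC48A1, a lysosomal heme exporter, rose with JQ1 by 2.24 (adjusted p = 5.65e-05), ALAD, the second enzyme of heme synthesis, by 1.60 (adjusted p = 9.03e-05) and FLVCR2, a transporter of the same family as the heme exporter FLVCR1, by 1.47 (adjusted p = 4.49e-05). Of these, SLC48A1 also rose with FIDAS-5, by 0.80 (adjusted p = 0.0175), a call lost in 4 of 20 alternatives.

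Iron-sulfur cluster assembly had all 26 genes tested, with 1 higher and 4 lower for FIDAS-5 (beside 20.2% of all tested genes called) and 5 higher and 7 lower for JQ1 (beside 38.5%). The FIDAS-5 count of 5 was 1 without FIDAS-5 replicate 3, 2 without FIDAS-5 replicate 2, 3 without vehicle replicate 2 or 3 and 9 after the GC correction. CIAO2B, of the cytosolic targeting complex, rose with FIDAS-5 by 0.78 (adjusted p = 0.00426) and with JQ1 by 0.62 (adjusted p = 0.00671). JQ1 was followed by lower NUBPL, an assembly factor of respiratory complex I, by a log2 fold change of -1.33 (adjusted p = 0.00197), and lower LYRM4, the partner of the cysteine desulfurase (-0.83, adjusted p = 0.00130). NUBPL was also lower with FIDAS-5 (-0.87, adjusted p = 0.0270), a call lost in 5 of 20 alternatives. IBA57, which acts late in mitochondrial assembly, rose with JQ1 by 1.10 (adjusted p = 3.77e-04), or by 1.70 with a pseudocount of 0.1.

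**Figure D4:**
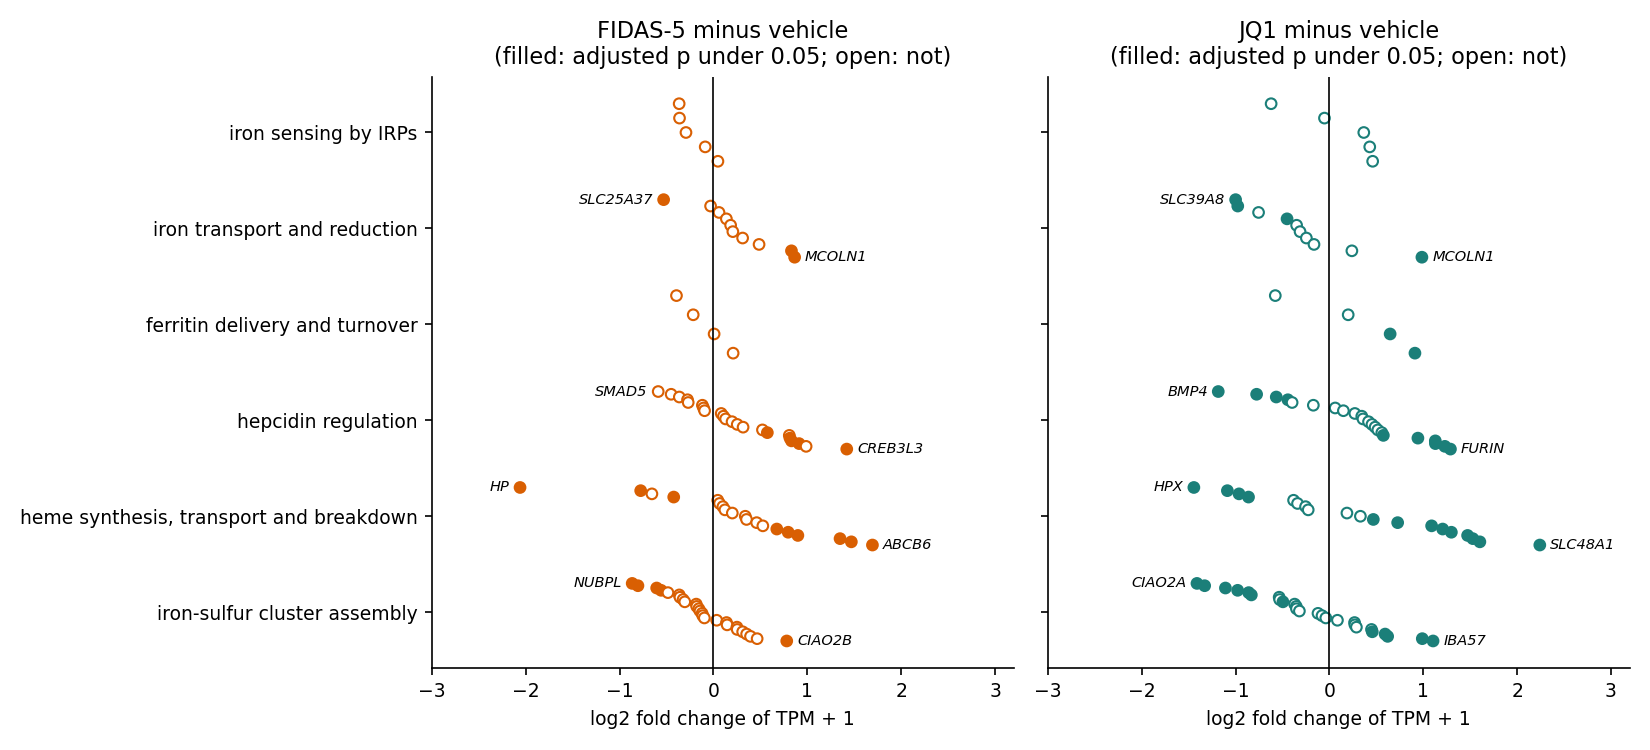
Log2 fold change of TPM + 1 (horizontal axes) of the tested genes of the 6 lists (rows) for FIDAS-5 against vehicle and JQ1 against vehicle, 1 point per gene, spread vertically within a row by rank; filled points had an adjusted p under 0.05. HP is lowest with FIDAS-5 at -2.06 and SLC48A1 highest with JQ1 at 2.24. The points include HEPH and HJV, which passed the filter only through their FIDAS-5 libraries.

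The genes nearest to each called member across the 9 libraries were taken from 7892 candidates by the root mean square difference of log2(TPM + 1) relative to the vehicle mean, as a description without a test. FTL was nearest to GUSB (0.064), CTSB and CPNE1, and FTH1 to FGFR4 (0.088), PLXNA1 and PIP5K1C. TF was nearest to OAZ1 (0.080), COX7A2L and KCTD7, and SLC40A1 to PSD3 (0.092), TCAF1 and ARL6IP1. The iron handling genes were not candidates, so FTL and FTH1 could not be neighbours of each other. Among the candidates, the ferritin chains had no near neighbour in common in the first 3. SLC11A2 was nearest to PSMG1 (0.054), TAF1D and CSNK2A1, HFE to SPRED2 (0.16), LPCAT4 and BCAR3, TFR2 to SLC16A5 (0.13), TNFAIP2 and EPHA2, and CP to TMEM45A (0.23), DUSP6 and CFI.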

How the data were processed

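Values are TPM per gene symbol that the authors deposited for 9 libraries, made with Salmon on hg38 per the submitters' processing notes; the annotation, Salmon version and strandedness are not given in the sources used here. The genes and lists were chosen with earlier results of these data known. Symbols were matched to RefSeq tables (25681 current, 1134 synonyms, 985 unmatched). Genes that reached 1 TPM in 3 or more libraries were tested on log2(TPM + 1), a scale that understates changes of low genes, with limma 3.58.1 in R 4.3.3 (1 mean per group, all 9 libraries, two-sided, 6 residual and 2.86 prior degrees of freedom, Benjamini-Hochberg over 13573 genes). The fit was tested on simulated data with independent noise for each gene. Those data lack the GC trends of these libraries, so they do not measure false calls under such trends. Ratios within libraries were compared by exact permutation tests. From each list, up to 4 called genes per comparison could be named by smallest adjusted p, and others only to describe the list; among these, genes whose calls held were preferred after the values were seen. Alternatives changed the pseudocount, filter, scaling, libraries in the fit, moderation and replicate block and left out each library; removal of a lowess GC trend and leaving out replicate 3 of both compounds were added after seeing the data. Same-numbered FIDAS-5 and JQ1 libraries deviated together (correlations 0.26, 0.10 and 0.42). So did FIDAS-5 replicate 1 and JQ1 replicate 2 (0.18), and both compounds shared the order of their GC trends. The labels state no pairing, and whether the numbers pair libraries was not tested. Same-numbered libraries with vehicle had correlations of -0.08 to 0.16. No 2 replicates held identical values (Pearson 0.952 to 0.975 on the log scale). Sequences came from GENCODE transcripts and genome positions from RefSeq, both GRCh38.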

Additional observations from a re-analysis of the deposited data

How the results depend on the processing

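TPM keeps no depth, and 3 libraries per group limit precision. Against vehicle, the number of the 9 iron handling genes called with FIDAS-5 (1 in the report) was 3 with median-of-ratios scaling, quantile normalization, protein-coding genes only or the GC trend removed, 2 with only the 6 libraries compared and 2 without replicate 3 of both compounds, and 1 to 2 when any one library was left out. Of all genes, 2742 were called with FIDAS-5, 4416 with the GC trend removed and 1461 to 3304 with one library left out (1461 without FIDAS-5 replicate 3, 1634 without vehicle replicate 3); JQ1 against FIDAS-5 had 4726, and 2991 with a filter of 5 TPM, which tests fewer genes and leaves out CP and HFE. The counts of iron genes called with JQ1 stayed within 1.5 times in all alternatives (6 to 7 with one library left out in either JQ1 comparison; 7 against vehicle and 6 against FIDAS-5 without replicate 3 of both compounds). Differences that changed sign were all small and not called: TF with FIDAS-5 was 0.066 with quantile normalization and -0.14 to 0.017 with one library left out; FTL with FIDAS-5 was -0.12 with the GC trend removed and -0.063 to 0.095 with one library left out; TFRC in JQ1 against FIDAS-5 was -0.61 to 0.27. The log2 ratio of FTL to FTH1 with JQ1 against vehicle ran from -0.20 to 0.31 with one library left out. Of the alternative fold changes of these genes, 496 kept direction and side of the threshold, 16 gained a call, 15 lost one and 7 changed sign. With the replicate block, 1, 7 and 7 of these genes were called in FIDAS-5 against vehicle, JQ1 against vehicle and JQ1 against FIDAS-5, as without it, and 2891, 5544 and 5052 of all genes; it changed no call of the iron genes. Paired differences within replicate numbers have the same mean by construction, so only the p could change. Their exact permutation p ran from 0.25 to 0.75, where 0.25 is the smallest that 3 pairs allow. The labels state no pairing of libraries. The cause of these changes was not tested.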
